A study of Rattus norvegicus with 15 samples.

Results

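The genes described here are 34 enzymes, carriers and regulators of fatty acid oxidation and of peroxisomes in the rat kidney. They were taken as a fixed list of symbols, and every probe set that the array annotation assigns to 1 of these symbols was included. Of the 34 listed genes, 33 had at least 1 probe set, which gave 63 of 26379 probe sets (45 on array A, 11 on B and 7 on C). Acsm5 had none. Over all 3 designs 10970 genes were named. On A, 2 more probe sets are assigned to a listed gene together with a close relative (Acaa1b with Acaa1a, and Acot2 with Acot1) and were not named.

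RNA from kidneys of 5-week-old rats was hybridised to 15 single-channel oligonucleotide arrays, 5 of each design, and each kidney carries a number from 1 to 5. The rats are either Dahl salt-sensitive (Dahl S), a model of salt-dependent hypertension, or from a strain congenic for a segment of chromosome 10 on that background. Both strains therefore share the Dahl S genome outside the segment, whose donor and extent the labels do not state, nor do they state diet, sex or the part of the kidney taken. On B and C, kidneys 1 to 3 are Dahl S (n = 3) and kidneys 4 and 5 are congenic (n = 2). On A all 5 are described as Dahl S, although 4 and 5 are the numbers that congenic kidneys have on B and C; their strain is unsettled and each is given as a single value. The labels do not say whether separate animals were used within a strain, and the p-values therefore rest on a spread between samples that may be only technical. Nor do the labels say whether kidneys of the same number on different designs are the same kidney. Where a kidney number is followed across designs, this is assumed.

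Fatty acids are the main fuel of the proximal tubule. Long-chain fatty acids are activated to acyl-CoA, carried into mitochondria as carnitine esters by the carnitine palmitoyltransferases and the carnitine carrier, and shortened by repeated dehydrogenation, hydration, oxidation and thiolysis. Auxiliary enzymes rearrange the double bonds of unsaturated chains. Peroxisomes shorten very long and branched chains through their own set of enzymes, and the nuclear receptor Ppara with its coactivator Ppargc1a drives transcription of genes of both organelles.

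The deposited values are linear signal intensities, scaled by their authors so that the trimmed mean of every array lies between 1000.6 and 1001.3. A probe set was kept where its mean over the 5 arrays of its design was at least the median of its design (319.5 for A, 485.8 for B, 510.3 for C). This kept 43 of the 63 probe sets, in 28 genes (34, 5 and 4 probe sets on A, B and C). Acox2, Fabp1, Fabp4, Ppara and Ppargc1a did not reach the filter on any design. The kidney label was borne out on A, where 11 of 12 proximal tubule marker genes and 8 of 9 distal nephron marker genes were measured and all passed the filter. The kidney numbered 4 stood apart on each of the 3 designs. It lay over 2-fold from the median of the other 4 kidneys for 2.4% of the kept probe sets on A, and for 1.89% and 1.65% on B and C, against 0.339% to 1.3% for any other kidney. The precision is limited by the number of arrays.

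No gene of the list differed between congenic and Dahl S kidneys at an adjusted p of 0.05 in limma with Benjamini-Hochberg adjustment. On B, 0 of 5 kept probe sets passed (0.0912% of all 4385), and 0 of 5 had an unadjusted p under 0.05 (3.49% of all). On C, 0 of 4 passed (0.0% of all 4420), and 1 of 4, that of Eci2, had an unadjusted p under 0.05 (6.2% of all). All 5 differences on B were positive, where 51.4% of all were negative, but those of Hadh and Acot2 were only 0.01 and 0.02. The median over the 5 was 0.08 on the log2 scale, against -0.01 over all probe sets of B. On C, 2 were positive and 2 negative with a median of -0.06, against -0.01 over all. With 3 kidneys against 2, an exact two-sided rank-sum test of a single gene cannot go below p = 0.2.

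**Figure D1:**
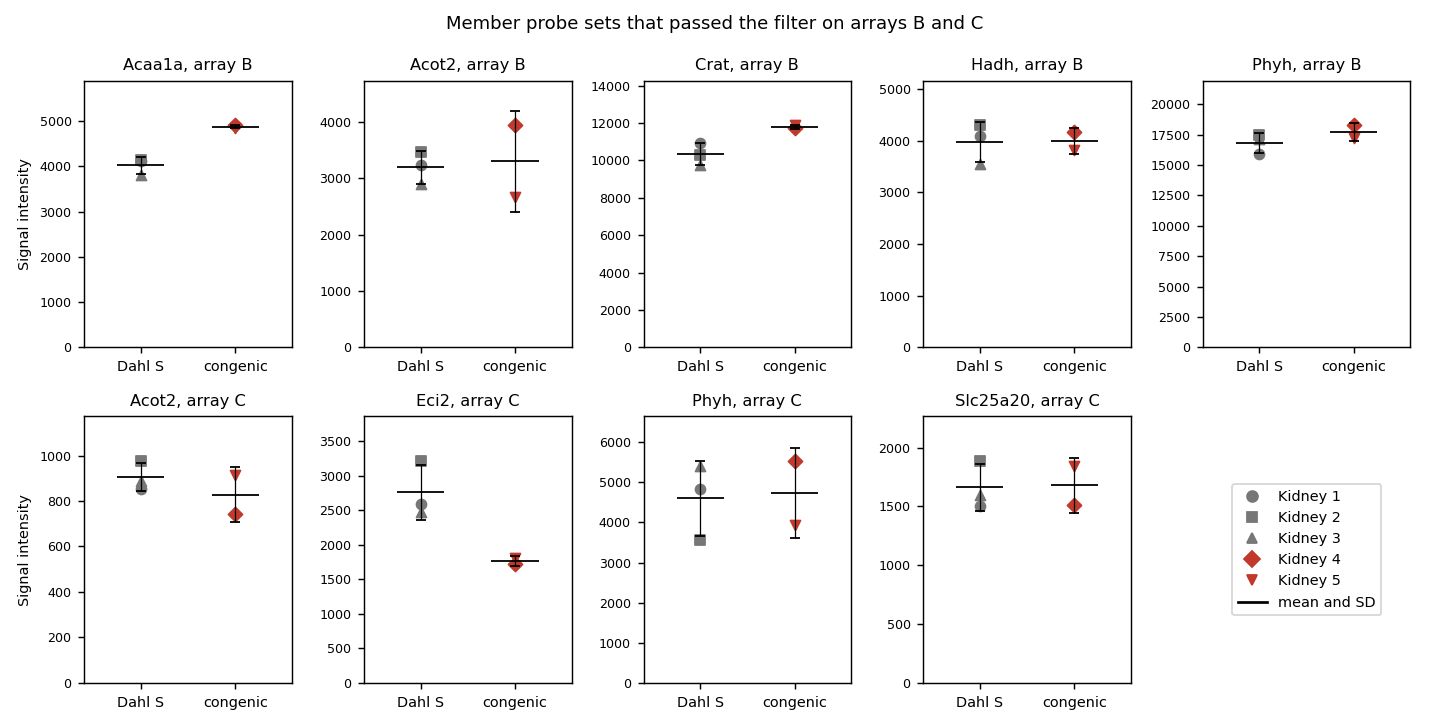
Signal intensity of the 9 kept member probe sets of arrays B and C in each kidney, with Dahl S kidneys 1 to 3 on the left and congenic kidneys 4 and 5 on the right of each panel; bars are the mean and SD, and each panel has its own axis from 0. The strains are separated for Acaa1a and Crat on B and for Eci2 on C, and overlap in the other panels.

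Among the listed genes with a probe set kept on B or C, the largest strain difference by size was that of Eci2. Eci2 is the enoyl-CoA delta isomerase 2 that moves the double bond of unsaturated acyl-CoA. Its only probe set (rc_AI104482_at, array C, gene on chromosome 17) read 2586, 3213 and 2473 in Dahl S kidneys 1 to 3 and 1714 and 1812 in congenic kidneys 4 and 5. Both congenic values lay below all Dahl S values, with means of 1763 ± 68.7 (SD, n = 2) and 2757 ± 398 (SD, n = 3). Across C, 22.4% of kept probe sets had strain values that did not overlap, and 12.2% had them lower in the congenic kidneys. The log2 difference was -0.64 (SE 0.16, 95% interval -1.01 to -0.26), a level 1.55-fold lower, with an unadjusted limma p of 0.00497 and a Benjamini-Hochberg adjusted p of 0.739. Without kidney 4 the log2 difference was -0.60, and without kidney 5 it was -0.68. Over 13 other settings, which include leaving out each kidney, it stayed between -0.71 (without kidney 3) and -0.52 (without kidney 2). Where both congenic kidneys were kept, the adjusted limma p-values of these settings were 0.632 to 0.995. The summed proximal tubule markers on C were 43809 to 44514 in Dahl S kidneys, 63010 in kidney 4 and 36607 in kidney 5. The sum of kidney 4 rests on Pck1, since Slc22a8 and Ggt1 together gave 20305 to 22423 in Dahl S kidneys, 21726 in kidney 4 and 18045 in kidney 5. Thus kidney 5 was below the Dahl S range with and without Pck1, and the part of this in the Eci2 values was not tested. In whole-tissue RNA, fewer cells of a type and less RNA per cell cannot be told apart.

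The 250 bases before the RefSeq start of Eci2 (build GRCr8, plus strand, chr17:30075516-30075765) are printed because this gene had the lowest p of the list. Capitals mark each GC box, GGGCGG or its reverse complement CCGCCC, searched on both strands.
Eci2: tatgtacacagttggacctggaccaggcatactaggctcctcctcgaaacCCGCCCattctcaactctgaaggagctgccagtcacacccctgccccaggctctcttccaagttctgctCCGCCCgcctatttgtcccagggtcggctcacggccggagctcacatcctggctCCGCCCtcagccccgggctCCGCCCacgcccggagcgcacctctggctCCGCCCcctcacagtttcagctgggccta
The window holds 5 GC boxes, all in the CCGCCC orientation. Of the 34 listed genes 29 had a RefSeq promoter entry, and 17 of these 29 hold at least 1 GC box in the 250 bases, against 30.5% of all 33469 promoters. The windows of Hadha and Hadhb share 200 bases, so the 1 GC box of Hadha is counted for both genes.

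Crat, carnitine acetyltransferase, which exchanges short acyl groups between CoA and carnitine, was measured on B at 10958, 10263 and 9767 in Dahl S and 11724 and 11870.2 in congenic kidneys. Both congenic values were the higher ones, as on 7.73% of all probe sets of B. The log2 difference of 0.19 (SE 0.13, 95% interval -0.12 to 0.50) had an adjusted limma p of 0.998, and it was 0.20 without kidney 4 and 0.18 without kidney 5. Hadh, the short- and medium-chain hydroxyacyl-CoA dehydrogenase, read 4083, 4296 and 3557 against 4168 and 3819 on B, with both congenic values inside the Dahl S range and a log2 difference of 0.01 (95% interval -0.34 to 0.36).

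Of the peroxisomal genes, Acaa1a, the thiolase that closes the peroxisomal cycle, read 4119, 4141 and 3800 in Dahl S and 4901 and 4852 in congenic kidneys on B. The strains did not overlap, with means of 4020 ± 191 (SD, n = 3) and 4877 ± 34.8 (SD, n = 2). Both Acaa1a and Crat were thus non-overlapping, 2 of 5 members against 17.2% of all probe sets of B. The log2 difference of Acaa1a was 0.28 (SE 0.13, 95% interval -0.02 to 0.58), a level 1.21-fold higher, with an adjusted limma p of 0.998. It was 0.27 without kidney 4 and 0.29 without kidney 5. Summed glomerular markers on B, of which Podxl makes up most, were 2691 to 3239 in Dahl S kidneys, 5469.9 in kidney 4 and 3374 in kidney 5, also above the Dahl S range in both, and their part in the Acaa1a and Crat values was not tested. The paralog Acaa1b is close in sequence, so the value is uncertain as to which of them it measures. Phyh, phytanoyl-CoA hydroxylase, the first enzyme of the breakdown of branched phytanic acid, is described with the genes measured on several designs.

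**Figure D2:**
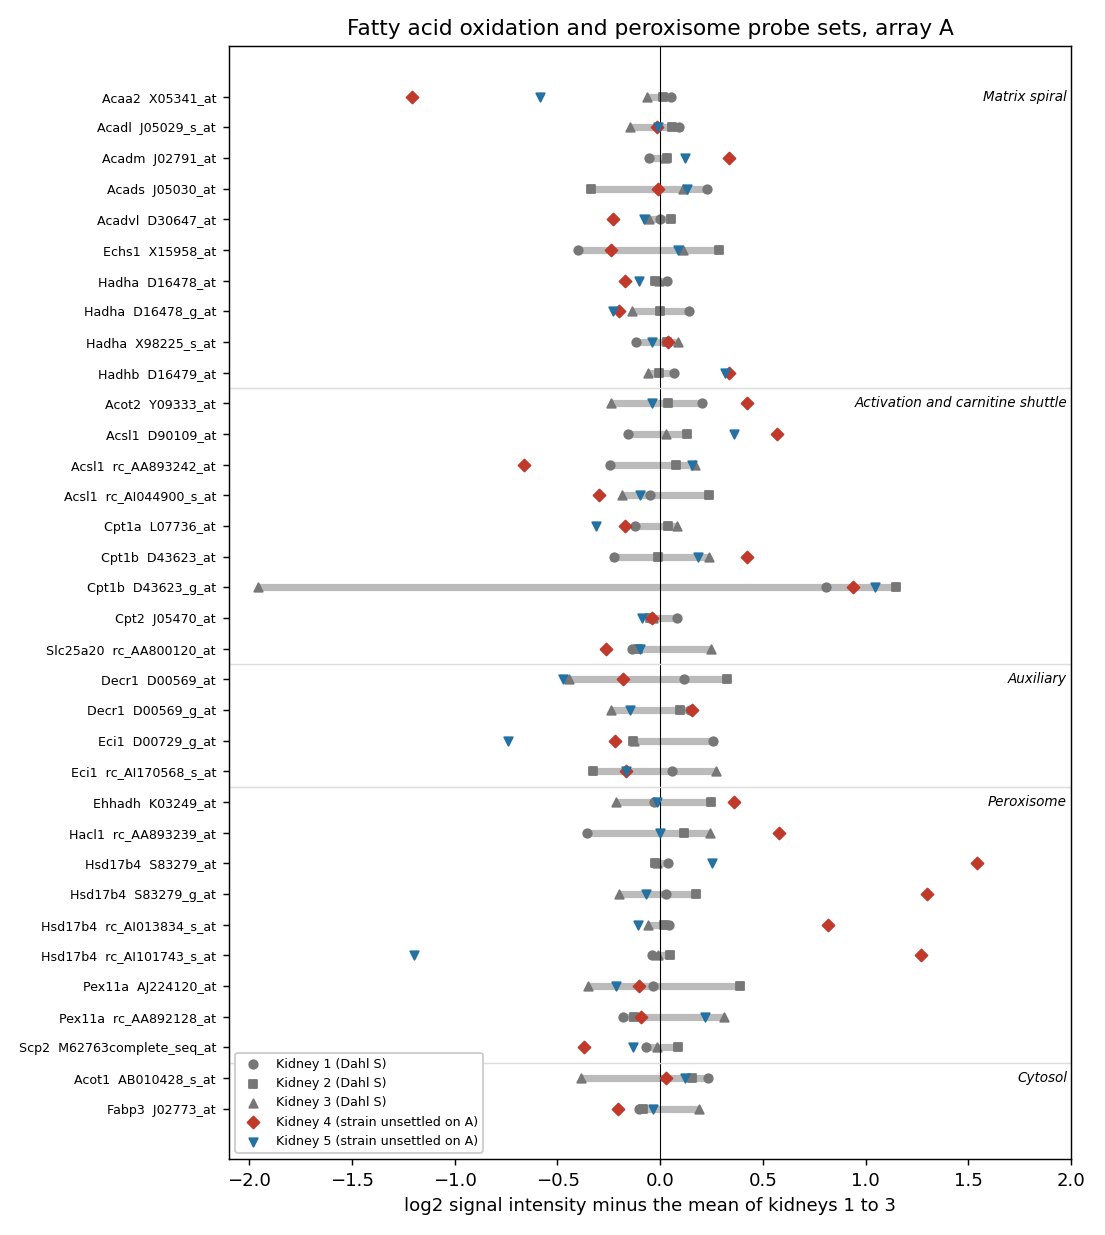
Log2 signal intensity of the 34 kept member probe sets of array A in each kidney minus the mean of kidneys 1 to 3 of the same probe set, grouped by role. Most points lie close to 0, and kidney 4 lies far to the right for the Hsd17b4 probe sets and to the left for Acaa2.

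On A no strain comparison was made. The median coefficient of variation over Dahl S kidneys 1 to 3 was 13.4% for the 34 kept member probe sets and 13.1% for all 4411. Within the list it was 5.81% for the core enzymes of mitochondrial oxidation (10 probe sets in 8 genes), 12.9% for peroxisomal genes (9), 15.1% for entry into mitochondria (9) and 18.2% for the auxiliary enzymes (4). Mean intensity over kidneys 1 to 3 was 1277 to 8320 for the core probe sets and 353 to 3559 for the peroxisomal ones. The spread was not compared at like intensity. Kidney 4 lay outside the range of kidneys 1 to 3 on 23 of 34 member probe sets (12 above, 11 below), or 67.6%, against 54.2% of all. Kidney 5 lay outside on 15 of 34 (4 above, 11 below), or 44.1%, against 47.9% of all. The summed proximal tubule markers were 245109 to 274229 in kidneys 1 to 3, 263660 in kidney 4 and 209953 in kidney 5. The brightest of these probe sets, rc_AI105198_i_at of Slc34a1, read 48780 to 62655 in kidneys 1 to 3 and 33515 in kidney 5. Cubn and AB013453_at of Slc34a1 went the other way and were highest in kidney 5. The median log2 difference of kidney 5 over the 17 marker probe sets was -0.12. The part of these markers in the low values of kidney 5 was not tested. Scaling each array to a common median in place of the deposited scale shifts kidney 4 on A upward by 0.15 on the log2 scale, and kidney 4 then lies above the range on 13 member probe sets and below it on 3. These are 47.1% of the members against 57.2% of all, so the order of the shares depends on the scaling. The split for kidney 5 is then 5 above and 9 below, or 41.2% against 47.1% of all.

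Of the genes of entry into mitochondria, Cpt1a, the liver-type carnitine palmitoyltransferase that sets the rate of entry, read 2812, 3143 and 3235 in kidneys 1 to 3, 2719 in kidney 4 and 2464 in kidney 5. Both later kidneys lay below the range of the Dahl S kidneys, by -0.17 and -0.31 on the log2 scale, and the first is -0.02 after median scaling. Cpt2, which releases the acyl group inside the mitochondrion, read 1090.1, 997 and 1007 in kidneys 1 to 3 and 1003 and 969.8 in kidneys 4 and 5. It was among the steadiest of the entry genes, with a coefficient of variation of 4.96% over kidneys 1 to 3.

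The muscle-type isoform Cpt1b has a pair of probe sets on A that differed in kidney 3. D43623_at read 756, 877 and 1043 in kidneys 1 to 3 and 1186 and 1005 in kidneys 4 and 5. D43623_g_at read 633, 801 and 93.1 in kidneys 1 to 3 and 694 and 747 in kidneys 4 and 5. Kidney 3 was thus the highest Dahl S kidney on the first and far the lowest on the second, whose coefficient of variation of 72.7% was the highest among the kept members. Striated muscle markers did not reach the filter on A (0 of 7 measured genes). Acsl1, the long-chain acyl-CoA synthetase that activates fatty acids, also disagreed between probe sets. The probe set with the highest mean, rc_AI044900_s_at, read 1501, 1829 and 1362 in kidneys 1 to 3, 1264 in kidney 4 and 1449.6 in kidney 5, with kidney 4 below the range and kidney 5 inside it. D90109_at read 993, 1213 and 1132 in kidneys 1 to 3, 1647 in kidney 4 and 1423 in kidney 5, with both later kidneys above the range. Kidney 4 differed from the mean of kidneys 1 to 3 by 0.57 on this probe set but by -0.66 on rc_AA893242_at and -0.30 on rc_AI044900_s_at, all on the log2 scale.

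The core enzymes ranged in coefficient of variation over kidneys 1 to 3 from 2.05% to 23.2%, the highest being that of Echs1. Acadvl, the very-long-chain acyl-CoA dehydrogenase, whose gene lies on chromosome 10, read 1463, 1518 and 1407 in kidneys 1 to 3, 1249 in kidney 4 and 1386 in kidney 5 on A. Both later kidneys lay just below the others, by -0.23 and -0.08 on the log2 scale. After median scaling these differences of Acadvl were -0.08 and -0.09, inside the range of kidneys 1 to 3. Its probe set on C, at 354, 365 and 268 in Dahl S and 319 and 337 in congenic kidneys, did not reach the filter and showed full overlap. Acadl, the long-chain dehydrogenase, read 3120, 3051 and 2646 in kidneys 1 to 3 and 2895 and 2912 in kidneys 4 and 5, inside the range. On B a probe set of Acadl under the filter read 461, 218 and 296 in Dahl S and 527 and 511 in congenic kidneys, without overlap. Acads, the short-chain dehydrogenase, read 1474, 997 and 1361 against 1252 and 1378, with both later kidneys inside as well. Acadm, the medium-chain dehydrogenase, was above the range in both, at 8022, 8497 and 8442 in kidneys 1 to 3, 10483 in kidney 4 and 9049 in kidney 5.

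Hadha and Hadhb encode the alpha and beta subunits of the mitochondrial trifunctional protein, which carries out the last steps on long chains. They lie head to head on chromosome 6, with RefSeq starts 301 bases apart. The alpha subunit read 8311, 7980.0 and 8107 in kidneys 1 to 3, 7219.8 in kidney 4 and 7576 in kidney 5 on D16478_at, whose coefficient of variation of 2.05% was the lowest of the kept members. The beta subunit read 3550.0, 3370.0 and 3251 in kidneys 1 to 3, 4276 in kidney 4 and 4213 in kidney 5. Kidneys 4 and 5 were thus below the Dahl S range for alpha (-0.17 and -0.10 on the log2 scale, the first -0.03 after median scaling) and above it for beta (0.34 and 0.31). D16478_g_at of Hadha was also below in both, at -0.20 and -0.23, the first -0.05 after median scaling. X98225_s_at lay inside the range at 0.04 and -0.04. The stretch before the Hadha start (RefSeq, GRCr8, plus strand, chr6:31907551-31907800), 200 bases of which are shared with the window of Hadhb on the other strand, is printed because the pair shares it, and capitals mark its 1 GC box.
Hadha: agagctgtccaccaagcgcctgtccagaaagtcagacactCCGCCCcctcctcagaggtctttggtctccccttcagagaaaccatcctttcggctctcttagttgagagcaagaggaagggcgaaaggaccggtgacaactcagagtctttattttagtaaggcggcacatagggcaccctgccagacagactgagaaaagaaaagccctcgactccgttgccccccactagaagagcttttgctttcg

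Echs1, the short-chain enoyl-CoA hydratase, spread widely among the Dahl S kidneys, at 4193, 6747 and 5978, with 4687 and 5863 in kidneys 4 and 5. Acaa2, the mitochondrial thiolase that closes the cycle, read 6424, 6272 and 5925 in kidneys 1 to 3, 2682 in kidney 4 and 4136 in kidney 5. Both later kidneys lay well below the narrow Dahl S range (coefficient of variation 4.12%), at 0.432 and 0.667 of its mean. The kidney 4 difference was -1.21 on the log2 scale and stayed between -1.25 and -1.06 over 5 other settings.

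The auxiliary enzymes on A were Decr1, the dienoyl-CoA reductase, and Eci1, the mitochondrial delta isomerase on chromosome 10. Eci1 read 4353, 3328 and 3341 in kidneys 1 to 3, 3126 in kidney 4 and 2179 in kidney 5 on D00729_g_at, with both later kidneys below the range. After median scaling kidney 4 was inside the range there. On rc_AI170568_s_at Eci1 read 3125, 2392 and 3619.8 against 2675 and 2674, inside the range. Its probe sets on B did not reach the filter. Of these, rc_AA997009_f_at read 328, 199 and 362 in Dahl S and 192 and 73.9 in congenic kidneys, without overlap. The other, rc_AA997746_at, read 288, 217 and 104 against 280.3 and 333. The 73.9 of kidney 5 and the 104 of kidney 3 lie under the floor of 140.1 on B. Decr1 read 2001, 2314 and 1356 in kidneys 1 to 3 and 1625 and 1331 in kidneys 4 and 5 on D00569_at, and kidney 5 was the lowest. Its second probe set, D00569_g_at, differed from the mean of kidneys 1 to 3 by 0.15 in kidney 4 and -0.15 in kidney 5, so that kidney 4 lay on opposite sides of the mean on the 2 probe sets.

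Among peroxisomal genes, Hsd17b4, the multifunctional protein that hydrates and dehydrogenates very long and branched chains, was far higher in kidney 4. S83279_at read 1423, 1361 and 1372 in kidneys 1 to 3, 4038 in kidney 4 and 1647 in kidney 5. S83279_g_at read 2469, 2729 and 2102 in kidneys 1 to 3, 5948 in kidney 4 and 2305 in kidney 5. The other probe sets were also highest in kidney 4, with rc_AI013834_s_at at 3667, 3598 and 3413, then 6274 and 3296. On rc_AI101743_s_at the values were 343, 365 and 351, then 849 and 154. The 4 probe sets put kidney 4 at 2.92, 2.46, 1.76 and 2.41 times the geometric mean of kidneys 1 to 3, whereas kidney 5 was above the range on 1, inside on 1 and below on 2. Of the member probe sets on A, 4 of 34 (11.8%) were over 2-fold from that mean in kidney 4, 3 of Hsd17b4 and that of Acaa2, against 2.56% of all; in kidney 5 it was 2 of 34, against 0.748% of all. Of these 2, Cpt1b D43623_g_at counts only through the low kidney 3, since kidney 5 lay inside the range there, and against the median of the other kidneys the count for kidney 5 was 1. The count for kidney 4 includes rc_AI101743_s_at of Hsd17b4, whose mean without kidney 4 would lie under the filter of 319.5.

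Beside this, kidney 4 on A had a summed level of liver markers of 3005 against 3975 to 4252 in kidneys 1 to 3 (Alb at most 181 in any kidney), of leukocyte markers of 16705 against 20929.5 to 27462, and of glomerular markers of 2636 against 1919 to 2074. Cd74 makes up most of the leukocyte sum on A. In kidney 4 on B and C the leukocyte sum was inside the Dahl S range, at 8763.5 (8339 to 12746) and 9662.5 (7746 to 10422). On A, striated muscle markers of kidney 4 summed to 637 against 1158 to 1213, with 0 of 7 genes at the filter. Summed adipocyte markers were 5009, inside the range of 4630.0 to 6815, with Plin1 at most 34.6. Of this sum 4520 came from 1 probe set of Lep (D49653_s_at), the only adipocyte probe set kept on A. Proximal tubule markers were inside the range as given above. The part of these levels in the Hsd17b4 and Acaa2 values was not tested. Hsd17b4 and Acaa2 both lie on chromosome 18.

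**Figure D3:**
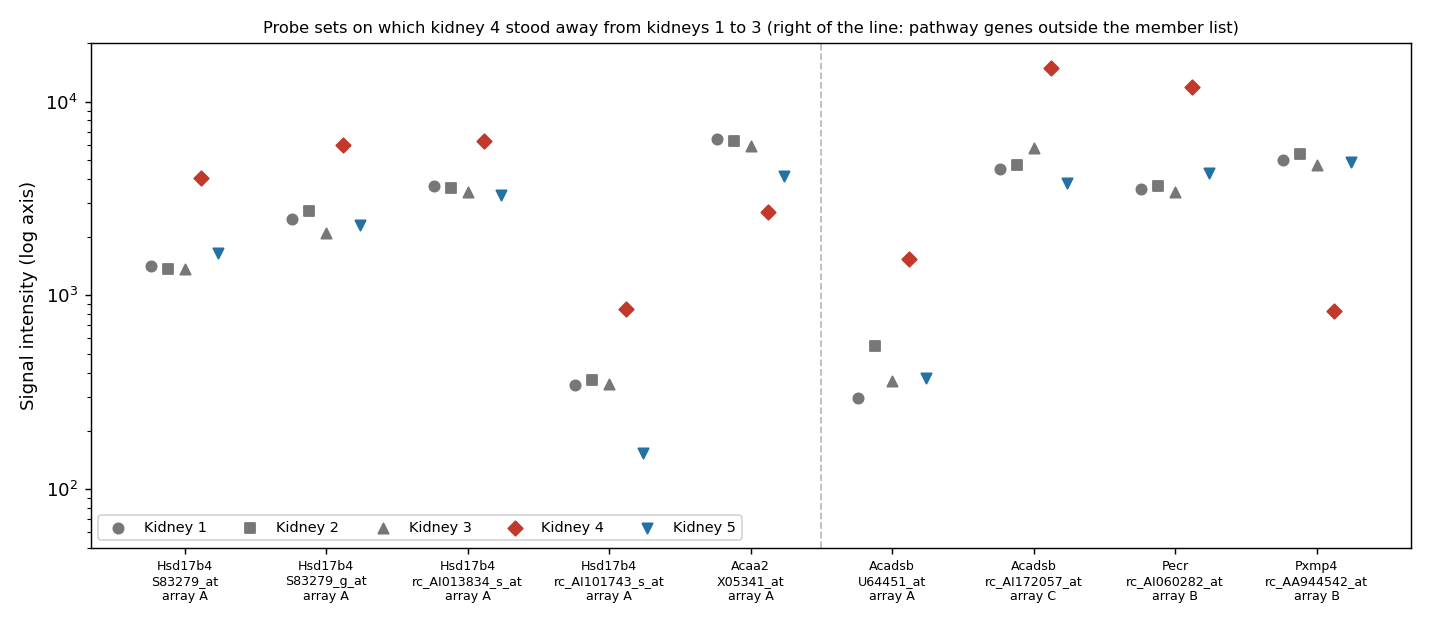
Signal intensity on a log axis of each kidney for the probe sets of Hsd17b4 and Acaa2 on array A and, right of the dashed line, for pathway genes outside the list. Kidney 4 is the highest point for the Hsd17b4 probe sets and the lowest for Acaa2.

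The promoter window of Hsd17b4 (RefSeq, GRCr8, plus strand, chr18:45515177-45515426) is printed as that of the member on which kidney 4 stood farthest out. Capitals mark 1 AGGTCA, the nuclear receptor half-site, and 2 GC boxes as CCGCCC.
Hsd17b4: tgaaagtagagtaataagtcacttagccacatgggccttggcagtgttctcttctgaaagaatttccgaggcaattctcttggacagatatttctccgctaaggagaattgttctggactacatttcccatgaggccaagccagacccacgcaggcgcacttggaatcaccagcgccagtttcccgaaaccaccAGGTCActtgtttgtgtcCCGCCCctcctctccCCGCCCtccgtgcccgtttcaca
AGGTCA, searched on both strands, was found in 6 of 29 member windows (Acadvl, Acsm5, Echs1, Eci1, Fabp1 and Hsd17b4), against 14.1% of all promoters. A direct repeat of that half-site spaced by 1 base was in 0 of 29 and in 0.0508% of all. CCAAT was in 8 of 29 members and in 11385 of 33469 promoters, and TATAAA in 2 of 29 against 12.9%. A match is a string of letters and not a bound site.

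In the other peroxisomal genes of A, kidneys 4 and 5 were closer to kidneys 1 to 3. Ehhadh, the bifunctional hydratase and dehydrogenase, read 1101, 1336 and 969 in kidneys 1 to 3, 1443 in kidney 4 and 1115 in kidney 5, with kidney 4 above the range. Hacl1, which cleaves hydroxylated branched chains, read 330.3, 457 and 499.5, then 631 and 423, again with kidney 4 above. Scp2, a sterol carrier and thiolase, read 1516, 1690.0 and 1575, then 1231 and 1454, with both later kidneys below. Pex11a, a peroxisome division factor, read 644, 863 and 518 on AJ224120_at, then 615 and 569, and kidneys 4 and 5 lay inside the range on this probe set and on rc_AA892128_at. Acox2, the oxidase for branched chains, read 261 to 320.0 and did not reach the filter.

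Of the carriers and cytosolic genes, Fabp3, the heart-type fatty acid binding protein, read 5145, 5205 and 6281 in kidneys 1 to 3, 4779.9 in kidney 4 and 5388 in kidney 5. Acot1, a cytosolic acyl-CoA thioesterase, read 2474, 2342 and 1614, then 2147 and 2293, inside the range, although close relatives may share its signal. Fabp1, the liver-type binding protein, read 7.8 to 11.6 in the 5 kidneys, under the floor of 85.1 on A. Fabp4, the adipocyte type, read 114 to 271 and did not reach the filter. Of the regulators, Ppara read 240.4 to 269.9 on A, and Ppargc1a read 473, 119 and 372 in Dahl S and 465 and 421 in congenic kidneys on B, so neither reached the filter.

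On A, kidneys 4 and 5 lay on the same side outside the range of kidneys 1 to 3 for 11 of 34 member probe sets (32.4%) in 10 genes, 4 above and 7 below, against 19.0% of all probe sets. After median scaling it was 4 above and 2 below, or 17.6%, against 19.0% of all, so that the share of members no longer exceeded that of all probe sets. After quantile normalization it was again 4 above and 7 below. Above were Acadm, Acsl1 (D90109_at), Hadhb and Hsd17b4 (S83279_at). Below were Acaa2, Acadvl, Cpt1a, Eci1 (D00729_g_at), Hadha (D16478_at and D16478_g_at) and Scp2. Of these genes only Acaa2 and Scp2 stayed below in both kidneys after median scaling. The members above and the members below both include core enzymes of mitochondrial oxidation, so core enzymes lay on both sides.

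Eci2 could not be compared between designs, since it has a probe set on C alone. Of the 10 genes with probe sets on more than 1 design, 3 passed the filter on at least 2: Acot2 on A, B and C, Slc25a20 on A and C, and Phyh on B and C. Each value is given as the log2 difference from the mean of kidneys 1 to 3 of its own probe set, since levels of different probe sets are not comparable. Kidneys 4 and 5 had the same sign on both designs in 4 of 10 gene, design pair and kidney combinations. Over all genes measured on more than 1 design the share was 54.7% (1524 of 2788).

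**Figure D4:**
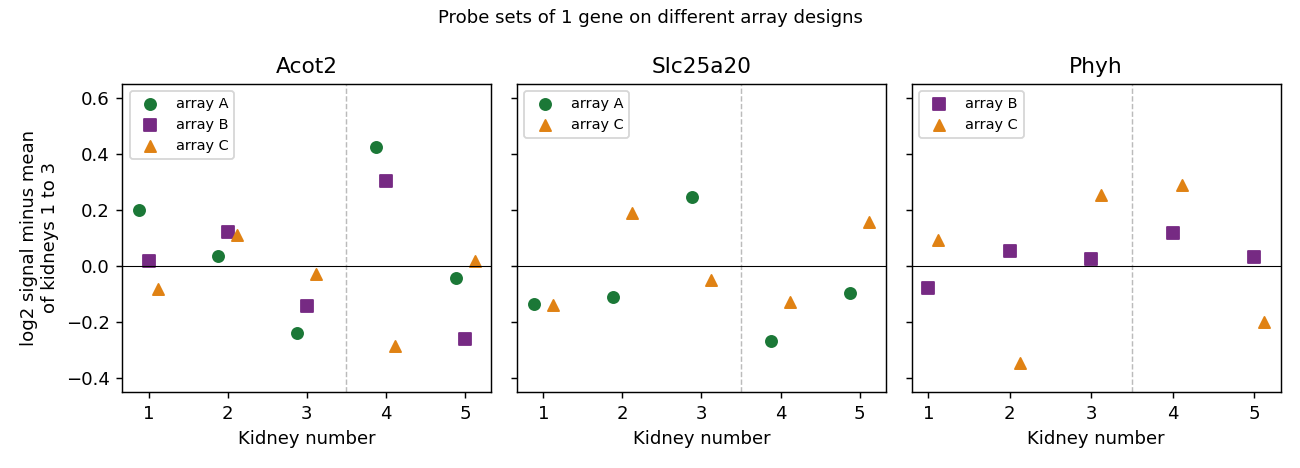
Log2 signal intensity minus the mean of kidneys 1 to 3 of the same probe set, by kidney number, for the 3 genes kept on more than 1 array design; the dashed line separates kidneys 1 to 3 from kidneys 4 and 5. Kidney 4 is at 0.42 and 0.30 on A and B and at -0.29 on C for Acot2.

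Acot2, a mitochondrial acyl-CoA thioesterase, read 989, 883 and 729 in kidneys 1 to 3, 1153 in kidney 4 and 835 in kidney 5 on A (Y09333_at). On B it read 3230.3, 3472 and 2890.3, then 3936 and 2662, and on C it read 854, 977 and 887, then 742 and 915. Kidney 4 was thus above the range on A and B and below it on C. The strain difference was 0.02 on B (95% interval -0.45 to 0.50) and -0.13 on C (-0.50 to 0.23), and its sign changed in 3 of 13 settings on B and 1 of 12 on C. Acot1 and Acot2 are near copies, so signal of each may be partly that of the other.

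Slc25a20, the carnitine and acylcarnitine carrier of the inner membrane, read 890.3, 907 and 1161 in kidneys 1 to 3, 814 in kidney 4 and 915 in kidney 5 on A. On C it read 1500.2, 1887 and 1598 in Dahl S and 1511 and 1845 in congenic kidneys, with full overlap. Kidney 4 was at -0.27 and -0.13 on the log2 scale on these designs, and kidney 5 at -0.10 and 0.16. The strain difference on C was 0.01 (95% interval -0.38 to 0.40).

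Phyh read 15912, 17438 and 17117 in Dahl S and 18252 and 17201 in congenic kidneys on B, and 4831, 3566 and 5397 against 5536 and 3947 on C. The strains overlapped on both. Kidney 4 was the highest on both designs, at 0.12 and 0.29 on the log2 scale, and kidney 5 was at 0.03 and -0.20. The strain difference was 0.08 on B (95% interval -0.23 to 0.39) and 0.05 on C (-0.48 to 0.58).

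Other genes of the same pathways, 133 in all, gave 28 kept probe sets in 22 genes on B and 27 in 26 genes on C. By limma with Benjamini-Hochberg adjustment 0 of them passed on either design, and by unadjusted p under 0.05 it was 1 on B and 0 on C, where 3.49% and 6.2% of all did. On B, 10 were higher and 18 lower in the congenic kidneys, and on C 14 and 13. Strain values did not overlap for 8 of 28 on B, against 17.2% of all, and 4 of 27 on C, against 22.4% of all. The median log2 difference was -0.02 on B and -0.01 on C for other mitochondrial oxidation genes, -0.08 and 0.13 for other peroxisomal genes, and 0.01 and 0.06 for Ppar partners and lipid handling, against -0.01 over all on each design. The peroxisomal medians thus had opposite signs on B and C.

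Pecr, the peroxisomal enoyl-CoA reductase, had the lowest p of these on B, with values of 3560.2, 3670.0 and 3414 in Dahl S, 11858 in kidney 4 and 4265 in kidney 5 (2.01-fold higher by the log2 means, 95% interval of the log2 difference 0.07 to 1.94, adjusted limma p 0.998). Kidney 4 carried most of it, at 3.34 times the mean of kidneys 1 to 3. Pxmp4, a peroxisomal membrane protein, read 5006, 5391 and 4705 in Dahl S, 831 in kidney 4 and 4905 in kidney 5, so kidney 4 alone was low, by 6.05-fold. Nudt19, Acad9, Mmut, Hibch, Med1, Nrf1 and Pnpla2 had the next lowest p of their lists on B, with log2 differences of -0.31, -0.29, 0.91, 0.24, -0.38, 0.61 and 0.06, all at an adjusted limma p of 0.998. On C the lowest were Slc25a29, Etfa, Acadsb, Pex19, Acot8, Prdx5, Rxra, Esrra and Slc27a1, with log2 differences of -0.36, 0.29, 0.61, 0.30, 0.29, 0.23, 0.29, -0.13 and 0.16 and adjusted limma p-values of 0.794 to 0.887. For 3 of these 18 genes (Acad9, Pnpla2 and Pex19) the value stayed within 1.5 times when any 1 kidney was left out. Mmut was 0.44 without Dahl S kidney 3 and Nrf1 0.20 without kidney 2. Without kidney 4, Pecr was 0.27, Pxmp4 -0.04 and Acadsb -0.38.

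Further genes of the pathways were picked out after their values were seen, because kidney 4 was far from kidneys 1 to 3. Acadsb, the short and branched chain acyl-CoA dehydrogenase of isoleucine breakdown, read 294, 545 and 360.2 in kidneys 1 to 3, 1544 in kidney 4 and 376 in kidney 5 on A. On C it read 4485, 4734 and 5753 in Dahl S, 14928 in kidney 4 and 3825 in kidney 5. Kidney 4 was thus 3.99 and 3.01 times the geometric mean of kidneys 1 to 3 on these designs. Ephx2, the soluble epoxide hydrolase found in peroxisomes and cytosol, was 2.25 times that mean in kidney 4 on rc_AI104882_s_at of A. On X60328_g_at it read 139, 66.2 and 77.2 in kidneys 1 to 3 and 1293 in kidney 4, at least 12.9-fold higher with the values under the floor of 85.1 set to it, and this probe set passed the filter through kidney 4 alone. Lpl, lipoprotein lipase, was 1.88, 3.32 and 2.94 times it on its probe sets, and Acsm3, a medium-chain acyl-CoA synthetase, was 2.88-fold lower. Array A had 8 of 82 kept pathway probe sets outside the list, B had 2 of 28 and C had 1 of 27 that were over 2-fold from that mean in kidney 4, against 2.56%, 2.14% and 1.67% of all kept probe sets. In kidney 5 there were 0 on each design, against 0.748%, 0.73% and 0.633% of all. The 8 of kidney 4 on A include X60328_g_at of Ephx2, kept through kidney 4 alone. They also include Etfdh, where kidney 2 at 18.8 and kidney 4 at 4.7 were both under the floor. A further one is Pex14, at 1.09 on the log2 scale on AB017544_g_at but -0.27 on AB017544_at.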

How the data were processed

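Kidneys were profiled on 15 single-channel arrays of 3 designs. The deposited values are linear signal intensity per probe set, per the authors' value tables. No label or header names the software or says whether a background was subtracted. The trimmed means show that the authors had scaled each array. That scale was kept. Within each design, lower values were set to the 25th percentile (85.1 on A, 140.1 on B, 153.6 on C), taken to log2, and probe sets were kept whose mean reached the median of all values; 59 control probe sets per design were left out. This kept 4411 of 8799, 4385 of 8791 and 4420 of 8789 probe sets. Symbols came from the platform annotation, updated by gene identifier to RefSeq GRCr8.

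Congenic and Dahl S kidneys were compared on B and C with limma 3.58.1 (lmFit, eBayes; R 4.3.3), two-sided, with Benjamini-Hochberg adjustment over all kept probe sets of a design and a threshold of 0.05; the fit was tested on simulated data. Differences are congenic minus Dahl S. Python 3.11.15, pandas 2.3.3 and numpy 2.4.6 were used for the rest. All listed members are accounted for. Values per array are given for members whose strain values do not overlap, for members kept on 2 or more designs, for the 3 most and 3 least variable probe sets of A, and for the brightest probe set of each core, entry and peroxisome member; from each pathway list the 3 genes with the smallest p per design are named. The members, the lists and the marker genes were chosen with earlier results of these data known. Alternatives were quantile or median scaling, other floors and filters, no filter, an intensity trend, array weights and leaving out each kidney.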

Additional observations from a re-analysis of the deposited data

Results flagged for a closer look

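On array A, kidney 4, which entered no strain comparison, lay over 2-fold above the highest of Dahl S kidneys 1 to 3 for 3 probe sets of Hsd17b4. S83279_at read 4038 against at most 1423, S83279_g_at read 5948 against at most 2729, and rc_AI101743_s_at read 849 against at most 365. The last of these was kept through kidney 4, since its mean without kidney 4 would lie under the filter. No test for an outlying array was made within a strain, since the groups hold 3 or 2 arrays.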

How the results depend on the processing

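No member passed the adjusted threshold on B or C under any of 13 alternatives per design, and the differences of Eci2 on C and of Acaa1a, Crat and Phyh on B kept their sign in all 13. The sign changed under some settings for Hadh on B (3 of 13), Phyh on C (2 of 13) and Slc25a20 on C (4 of 13), besides Acot2. The median log2 difference of members on B was 0.19 without the filter and 0.18 without kidney 5, and on C -0.21 without kidney 5. Over all probe sets of B, 4 passed, with 1 under quantile or median scaling, either floor, the stricter filter or array weights, 0 without any 1 Dahl S kidney or kidney 4, and 31 without kidney 5. On C, 0 passed, with 2 without the filter, 1 with an intensity trend and 35 without kidney 5. Leaving out kidney 4 or 5 leaves 1 congenic array, which is assumed to vary like the Dahl S arrays; without kidney 5 that array is kidney 4, which stood apart. Signs matched between designs in 4 of 10 combinations with the filter, 10 of 22 (9 genes) without it and 6 of 10 after quantile normalization. On A, the kidney 4 differences of Hsd17b4 stayed between 0.76 and 1.69 over the settings. The settings on A, the marker sum without Pck1 and the settings for the median over members and for the named pathway genes were chosen after seeing the data, and the cause of these shifts was not tested. No paired analysis was possible because the compared strains share no kidney number on an array design. The small number of arrays, and signals near the floor, limit precision.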

Other observations

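Genes outside these pathways were also far from kidneys 1 to 3 in kidney 4, and were picked after their values were seen. On J02657_s_at of array A, Cyp2c11, a cytochrome P450 known for its high level in male rat liver, read 62.3, 83.2 and 78.4 in kidneys 1 to 3. It read 2900.4 in kidney 4 and 381 in kidney 5. The first 3 values lie under the floor of 85.1, and the probe set passed the filter through kidney 4 alone. Other Cyp2c11 probe sets on A did not reach the filter. Rbp4, the plasma retinol carrier, read 491, 602 and 628, then 2995 and 932 on M10934_s_at. Pck1, the cytosolic enzyme of gluconeogenesis, read 5048, 5358 and 4802, then 14299 and 5010.2 on A, and 23615, 22091 and 23170 (23169.8), then 41284 and 18562 on C. Kidney 4 was the highest of the 5 on each of these probe sets.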
